A study of Homo sapiens with 18 samples.

Results

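The genes described here are 10 annexin and S100 genes, 7 annexins (*ANXA1*, *ANXA2*, *ANXA3*, *ANXA4*, *ANXA5*, *ANXA6* and *ANXA11*) and 3 S100 genes (*S100A6*, *S100A10* and *S100A11*), chosen by symbol from the 21944 genes of the authors' deposited table. The cells were pancreatic progenitors derived from human embryonic stem cells at day 19 of differentiation, which were detached and reseeded on the laminin isoform LN411 or on fibronectin (FN) and collected after 3, 6 or 24 h for bulk RNA sequencing. There were 3 samples in each of 6 groups, 18 in all, and the cells of both matrices came from the same reseeding procedure. The paper and the growth protocol in the labels give the cells as NGN3-GFP, a reporter line for NEUROG3 derived from SA121, while the labels' cell line field names HUES4. LN411 was not compared with FN here. The values below are the authors' means over all samples of both matrices and all 3 times, so that they describe which of these genes the cells expressed and at what level, and they carry no spread between replicates.

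Annexins are proteins that bind phospholipid membranes when calcium is present, through a core of repeated domains. S100 proteins are small calcium-binding proteins with EF-hand motifs that mostly act as dimers and bind other proteins, annexins among them. S100A10 is unusual in that it no longer binds calcium, and a dimer of it joins a pair of ANXA2 molecules into a complex at the inner face of the plasma membrane that links membranes to cortical actin.

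All 10 genes were listed at all 3 times, as were 18672 of all 21944 genes. All 10 lay above the median of all genes, a mean normalized count of 297.1. The median of the 10 was 9494, and 7 of them were among the top 10% of genes by this count, which is not corrected for length. *ANXA4* had the highest mean normalized count of the 10, at 41263, which placed it at rank 130 of all genes. *ANXA2* followed with 34815 at rank 172, and *ANXA5*, which binds phosphatidylserine, had 24167 at rank 298. These values put the 3 annexins among the most abundant messages of the cultures. *ANXA3* had a mean normalized count of 15831 (rank 513) and *ANXA11*, which carries a long N-terminal region, 7490 (rank 1467). *ANXA6*, which has a doubled annexin core, had 1797 (rank 6002). *ANXA1*, known for its part in the resolution of inflammation, was the lowest of the 10 with 498.3 (rank 9900), close to the median gene at 1.68 times its value. Among the S100 genes, *S100A10* had a mean normalized count of 11497 (rank 819), *S100A11* 7175 (rank 1564) and *S100A6* 2493 (rank 4820).

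**Figure D1:**
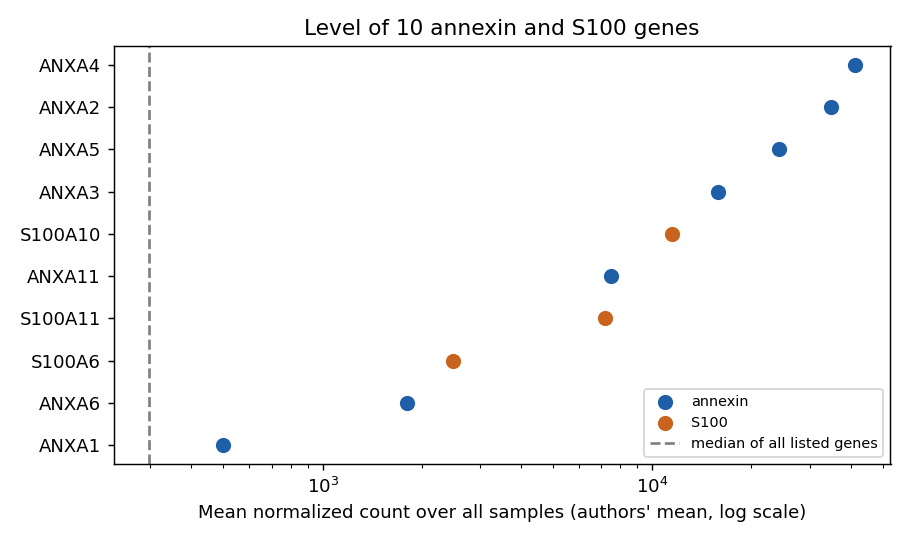
Mean normalized count of each of the 10 genes over all samples, as the authors' mean (horizontal, log scale), with annexins in blue, S100 genes in orange and the median of all listed genes as a dashed line at 297.1. The values run from 498.3 for *ANXA1* to 41263 for *ANXA4*, all to the right of the line, and have no error bars since the mean carries no replicate spread.

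A longer message gives more reads, and the coding sequences of the 10 genes run from 270 bases for *S100A6* to 2019 bases for *ANXA6*, so that levels of different genes were compared per kilobase of the longest annotated transcript. On this scale the short S100 messages moved up. *S100A10* was first with a mean normalized count per kilobase of 17135, ahead of *ANXA5* with 14754, *S100A11* with 12744, *ANXA2* with 9868 and *ANXA4* with 9340. *ANXA3* had 5399 per kilobase and *S100A6* 3704. The 3 lowest genes were *ANXA11* with 1075, *ANXA6* with 621.9 and *ANXA1* with 225.6 per kilobase, against a median of 99.6 over the 21861 genes with an annotated length.

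The order at the top depended on the length used. The first gene was *S100A10* per kilobase of the longest transcript or of all exons merged, *ANXA2* per kilobase of the canonical or the shortest coding transcript, and *ANXA4* with no length correction. For *ANXA2* the value ran from 3008 per kilobase of merged exons to 94350 per kilobase of its shortest coding transcript. That transcript has 369 bases, fewer than the 1017 of the canonical coding sequence, so that 94350 rests on a partial message. The shortest coding transcripts of *ANXA1*, *ANXA3*, *ANXA6* and *ANXA11* were also shorter than their coding sequences. With this length left aside, the first gene still differed between the scalings, so that no single gene can be named as the highest. At the other end, *ANXA6* was ninth and *ANXA1* last under each of the 5 scalings. Differences between neighbours in the order were not tested, since the spread over samples was not part of the values used.

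**Figure D2:**
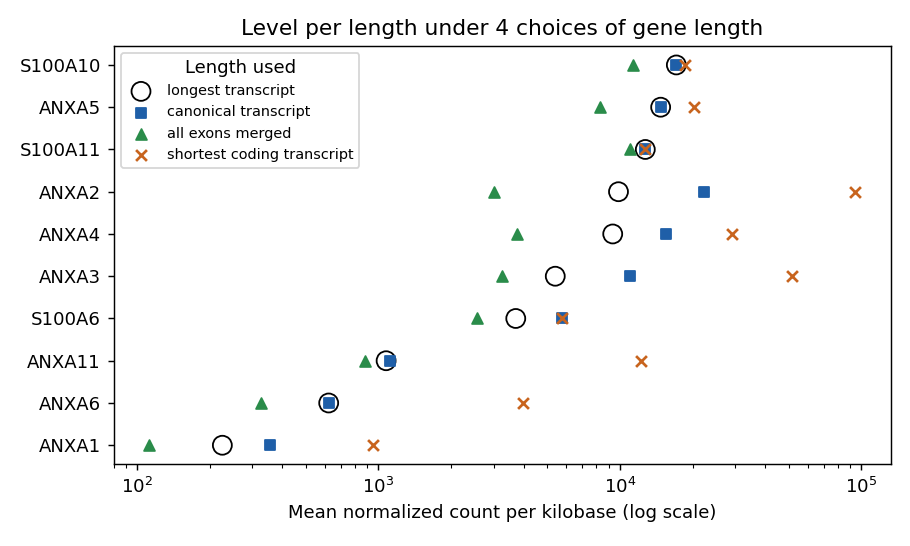
Mean normalized count per kilobase of each gene (horizontal, log scale) with 4 different lengths, the longest transcript (open circles), the canonical transcript (squares), all exons merged (triangles) and the shortest coding transcript (crosses). The symbols of *S100A11* lie close together, between 11056 and 12744, while those of *ANXA2* spread from 3008 to 94350, and *ANXA1* has the lowest value with each length. The crosses of *ANXA1*, *ANXA2*, *ANXA3*, *ANXA6* and *ANXA11* use transcripts shorter than the coding sequences of these genes.

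Pairs of genes whose products are known to bind each other were set side by side. The mean normalized count of *ANXA2* was 3.03 times that of *S100A10*. Per kilobase this ratio was 0.576 with the longest transcripts, 1.31 with the canonical ones, 0.265 with merged exons and 5.06 with the shortest coding transcripts, so that it lies on either side of equality. For *S100A11* and its partner *ANXA1*, the S100 gene was higher under each of the 5 scalings. The ratio was 14.4 with no length correction, 56.5 per kilobase of the longest transcripts and 35.8 with the canonical ones, and it ran from 13.5 with the shortest coding transcripts to 98.8 with merged exons. For *ANXA11* and *S100A6*, the S100 gene was higher per kilobase except with the shortest coding transcripts. The ratio of the annexin to the S100 gene was 0.290 with the longest transcripts, 0.194 with the canonical ones and 0.343 with merged exons. It was 2.14 with the shortest coding transcripts and 3.00 with no length correction. The shortest coding transcript of *ANXA11* has 610 bases, fewer than the 1515 of its coding sequence, so that 2.14 rests on a partial message. The shortest coding transcripts of *ANXA2* and *ANXA1* used above are also shorter than the coding sequences of these genes. The level of messages does not give the level of the proteins.

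The genes described here carried most of the summed level of both families. The table lists 11 of 13 annexin genes looked for, and the 7 annexins described here made up 94.6% of their summed mean normalized count. The other 4 were *ANXA7* with a mean normalized count of 5930, the epithelial *ANXA13* with 862.4, *ANXA9* with 373.7 and *ANXA10* with 37.5. *ANXA7* was thus above *ANXA6* and *ANXA1*, and *ANXA13* was above *ANXA1*. Of 20 S100 symbols looked for, 13 were listed, and *S100A6*, *S100A10* and *S100A11* made up 75.8% of the sum. The symbol *S100A15* names no gene in the annotation used. These shares describe a choice of genes that was made with earlier results of these data known. *S100A16* was above *S100A6* in mean normalized count, with 3846, but below it per kilobase of the longest transcript, at 3282. *S100A14* had 1400, *S100A13* 980.5 and *S100A4*, a gene often high in mesenchymal cells, 186.2. The calgranulin gene *S100A9*, typical of myeloid cells, had a mean normalized count of 11.8, and its partner *S100A8* was not among the listed genes. Genes that are not listed have no value here.

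**Figure D3:**
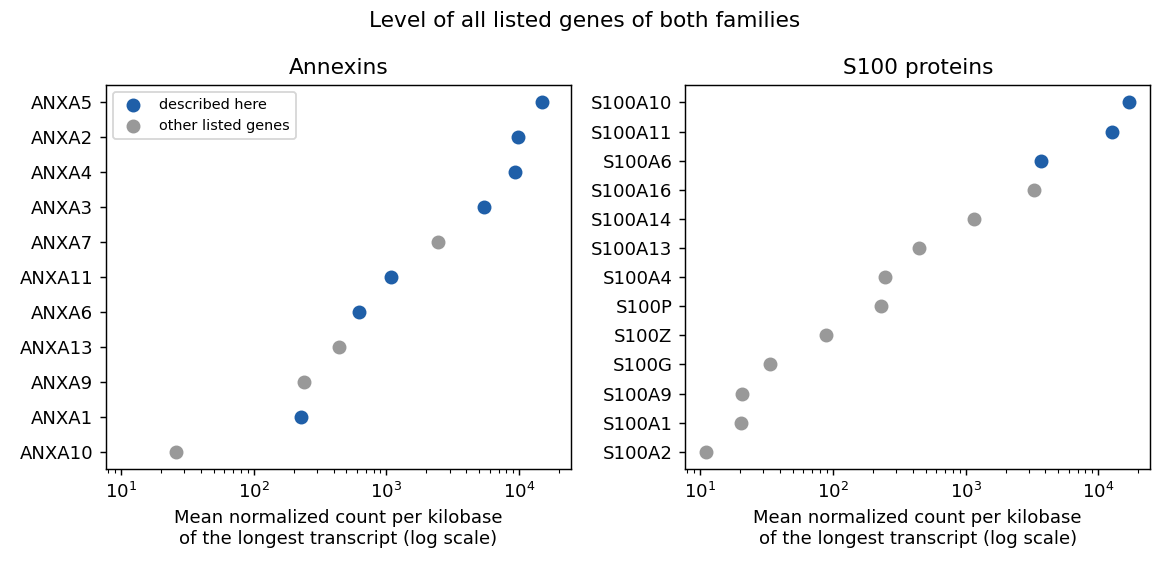
Mean normalized count per kilobase of the longest transcript (horizontal, log scale) of the 11 listed annexin genes (left) and the 13 listed S100 genes (right), with the genes described here in blue and the others in grey. The 3 blue S100 genes head their family, whereas among the annexins *ANXA7* lies above *ANXA11*, *ANXA6* and *ANXA1*. *ANXA13* and *ANXA9* also lie above *ANXA1*.

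Genes for other known partners of these proteins were also read from the table, and 7 of 9 were listed. *AHNAK*, which encodes a giant scaffold that binds the complex of ANXA2 and S100A10, had a mean normalized count of 25398 (rank 272), or 1354 per kilobase. The calpain genes *CAPN1* and *CAPN2* had 9901 and 8223. *SRI*, encoding sorcin, had 2985 and *PDCD6*, encoding the calcium sensor ALG-2, 368.6. *PLAT*, the tissue plasminogen activator gene whose product acts on plasminogen held at the cell surface by the complex of ANXA2 and S100A10, had 85.0, and *PLG* was not listed. The epithelial calcium channel gene *TRPV6*, whose product binds the same complex, had 212.8.

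The labelled cell type was checked against its markers. Of 9 genes taken as progenitor markers, all were listed, with mean normalized counts of 20672 for *SOX9*, 12933 for *PDX1* and 3040 for *NKX6-1*. *PTF1A* was low, with 12.5 at rank 18538. *EPCAM*, also among the 9, had 69597, but it is a general epithelial gene and not particular to these progenitors. Markers of other cells were present too. Of 5 mesenchyme markers, 4 lay above the median gene, with 45110 for *COL1A2*, 4091 for *COL1A1*, 867.6 for *PDGFRA* and 320.1 for *COL3A1*, and *PDGFRB* had 113.8. Both hepatic markers also lay above the median gene, with 26676 for *AFP* and 639.9 for *ALB*. Per kilobase of the longest transcript, *COL3A1* had 58.3, below the median of 99.6 over the genes with an annotated length. *COL1A2*, *COL1A1*, *PDGFRA* and both hepatic markers stayed above that median. The 3 endothelial markers lay between 5.12 and 75.0, and the pluripotency genes *POU5F1* and *NANOG* were not listed. Annexins and S100 genes are expressed in many cell types, and which cells of the culture carried the messages was not tested.

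In the genome (GRCh38, GENCODE v44), the 7 annexin genes lie on 6 chromosomes. *ANXA4* is on chromosome 2 from 69644425 to 69827112, *ANXA2* on chromosome 15 from 60347134 to 60402883, *ANXA6* on chromosome 5 from 151100706 to 151157815, *ANXA11* on chromosome 10 from 80150889 to 80205572 and *ANXA1* on chromosome 9 from 73151865 to 73170393. *ANXA3* (78551747 to 78610451) and *ANXA5* (121667946 to 121696995) share chromosome 4. The 3 S100 genes lie on chromosome 1, where 15 of the S100 genes looked for stand within 1.65 megabases. *S100A10* (151982915 to 151993859) and *S100A11* (152032506 to 152047907) are neighbours within the family, 0.0387 megabases apart, and *S100A6* (153534599 to 153536244) lies 1.49 megabases further along, next to *S100A5* and *S100A4*. Of the 15 genes, 10 were listed, and the adjoining *S100A5* and *S100A3* were not among them.

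Sequence shared with other genes can lower a count where reads that fit several places are dropped. Of the 1505 windows of 50 bases in the canonical *ANXA2* transcript, 575 (38.2%) occur in the processed pseudogene *ANXA2P2* on chromosome 9, and some of them also in *ANXA2P1* and *ANXA2P3*. None of the 3 pseudogenes was listed in the table. The level of *ANXA2* is therefore uncertain, and how many reads were affected was not tested. For *S100A11*, 12 of 514 windows (2.33%) occur in a processed pseudogene on chromosome 7, and for *ANXA11* 25 of 6685 windows (0.374%) occur in other transcripts. The other 7 genes shared no window. Exons of another gene overlap those of 1 of the 10 genes, *S100A6*, over 37 bases on the opposite strand.

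The promoter windows of RefSeq (GRCh38.p14), from 250 bases before to 50 after the start of a transcript, were compared for sequence features. There were 14 windows for the 10 genes, with a median GC content of 67.8%, against 64.0% for the 18991 windows of all listed genes. *ANXA1*, the gene with the lowest level, stood apart with a GC content of 37.7% and 0 CpG dinucleotides, and 2.80% of the windows of all listed genes had a GC content as low. Its window and that of *ANXA2*, at the upper end of the levels, are shown because both hold the letters TATAAA, in capitals, starting 31 bases before the start, in very different surroundings. *ANXA1* is read on the plus strand at chr9:73151615-73151914 and *ANXA2* on the minus strand at chr15:60397937-60398236.
ANXA1: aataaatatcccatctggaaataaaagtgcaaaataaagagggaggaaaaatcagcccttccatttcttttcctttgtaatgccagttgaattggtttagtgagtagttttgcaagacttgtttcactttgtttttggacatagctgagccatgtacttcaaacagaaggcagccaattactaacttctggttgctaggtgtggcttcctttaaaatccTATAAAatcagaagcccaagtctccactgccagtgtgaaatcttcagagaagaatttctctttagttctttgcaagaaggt
ANXA2: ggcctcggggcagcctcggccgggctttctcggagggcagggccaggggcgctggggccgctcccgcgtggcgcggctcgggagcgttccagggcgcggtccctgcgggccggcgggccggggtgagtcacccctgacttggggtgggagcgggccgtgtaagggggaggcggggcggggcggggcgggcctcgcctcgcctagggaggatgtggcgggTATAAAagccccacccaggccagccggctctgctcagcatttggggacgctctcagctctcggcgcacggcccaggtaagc
The window of *ANXA2* has 32 CpG dinucleotides and a GC content of 76.0%. TATAAA, searched on both strands, was found in 3 of the 14 windows (21.4%), 1 each of *ANXA1*, *ANXA2* and *ANXA11*, and in 7.39% of the windows of all listed genes. The letters GGGCGG, as bound by factors of the SP family, were found in 9 of the 14 windows (64.3%), a share near the 61.8% of the windows of all listed genes, and *ANXA1* and *ANXA3* had none. The AP-1 letters TGANTCA were found in 1 window, that of *ANXA2*, and in 5.67% of the windows of all listed genes. GGAATG, the letters of the TEAD factors that partner YAP, and the CArG box of SRF were found in none of the 14 windows, against 11.7% and 1.17% of those of all listed genes. A match is a description of the letters, and binding was not measured.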

How the data were processed

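Polyadenylated RNA of 18 samples in 6 groups was sequenced. According to the paper's methods, the authors aligned reads with STAR (version 2.7.2d in the submitters' processing notes) to GRCh38.p13 with GENCODE v32 and normalized gene counts with DESeq2 (version 1.34.0). The strand setting of the counting is not given in the sources used here.

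The deposited table holds, per gene and time, a mean normalized count, a signal that the authors averaged over samples after scaling by size factors, and the authors' own comparison of LN411 with FN (log2 fold change, standard error, statistic, p-value and adjusted p-value). These comparison columns hold the study's own results and were not used. The mean was the same at all 3 times (largest relative gap 4.89e-07), which fits DESeq2's usual mean over the whole set of samples as the authors' column name gives it. No per-sample values entered the work. For this reason the edgeR test planned for per-sample counts was not run, the depth per library is unknown and no error, interval or test is given.

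Genes were ranked by the mean. Lengths, positions and overlaps came from GENCODE v44 on GRCh38, matched by Ensembl identifier for 99.6% of genes. Windows of 50 bases of canonical transcripts were looked up in all v44 transcripts. Promoter windows came from RefSeq. All 10 genes, the rest of both families and known partners were named by a list, and the members and lists were chosen with earlier results of these data known. Ranking was tested on the means with small noise added and their order shuffled, and interval code on small fixed examples. Motif search was tested on simulated sequences with TGACTCA planted, and no other motif was tried. Their background held only A and G, so that this test could not show false matches. Python 3.11.15, numpy 2.4.6, pandas 2.3.3 and matplotlib 3.10.9 were used.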

Additional observations from a re-analysis of the deposited data

How the results depend on the processing

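Against the order per kilobase of the longest transcript, 2 of the 10 genes kept their place per kilobase of the shortest protein-coding transcript and 2 with no length correction. With lengths chosen after seeing the data, 5 kept their place with the Ensembl canonical transcript and 5 with all exons merged. By construction these settings differ only in the length used. The top 10% held 7 of the 10 genes when all 21944 were ranked, and also 7 when the ranking was limited to the 19329 whose mean reached 10. Both rankings used the mean with no length correction. Ranked per kilobase of the longest transcript, *ANXA11* fell outside the top 10%, at 13.4%, and *S100A6* came inside it, at 3.25%. No paired analysis was possible because the result comes from no test and the means used here are not divided by replicate. For the same reason, other normalizations, filters, single-time fits and fits without single samples were not run.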
